A study of Mus musculus with 48 samples.

Results

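The genes described here encode the subunits of the receptors for GABA and glutamate, the main inhibitory and excitatory transmitters of the brain. They were chosen by symbol: every gene whose name begins with Gabr, Gabbr, Gria, Grin, Grik, Grid or Grm (with a number after the glutamate prefixes) and whose mean over the 24 arcuate libraries reached 1 CPM (counts divided by the library's total and multiplied by 1000000). Of 49 matching symbols, 44 met this level, out of 25229 symbols in the count table and 14627 that reached the same level. Of these 44 members, 42 encode receptor subunits. The other 2 are Grid2ip, a synaptic protein that binds a receptor subunit, and Grin1os, an antisense transcript of Grin1. The members just above the level were Gabrr2 (1.26 CPM) and Grin3b (1.33 CPM), and the symbols just below it were Gabra6 (0.36 CPM) and Gabrr1 (0.34 CPM). Gabrp, Gabrr3 and Grm6 lay further below, with at most 0.06 CPM.

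The study sequenced RNA from micropunches of the arcuate nucleus, a hypothalamic centre of energy balance, and from the nodose ganglion of the left side, where sensory neurons of the vagus nerve have their somata. All mice were male Rev-erba/b flox/flox on a C57Bl6/J background, aged 10 to 12 weeks, on chow, at 27 C and under 12 h of light and 12 h of dark. Control mice had received AAV8-TBG-EGFP and HepDKO mice AAV8-TBG-Cre by tail vein at 6 to 10 weeks of age, and both were kept for 2 to 4 weeks. Tissue was taken at ZT4, ZT10, ZT16 and ZT22 (zeitgeber time, hours after lights on), with 3 libraries for each tissue, genotype and time, 48 in all. Controls therefore carried the same floxed alleles and a virus, and the TBG promoter directs expression to hepatocytes, so Cre was not aimed at the tissues sequenced. Each library was a pool of several mice (3 for arcuate per the sample labels and 3 to 4 per the series text, 4 for nodose).

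GABA-A receptors are pentameric chloride channels, commonly of alpha, beta and gamma subunits, and the subunit mix sets where the receptor sits and how it responds to drugs. GABA-B receptors are G protein-coupled dimers of the products of Gabbr1 and Gabbr2. AMPA, kainate and NMDA receptors are cation channels opened by glutamate, the GluD (delta) receptors organise synapses, and the metabotropic glutamate (mGlu) receptors signal through G proteins. In the arcuate nucleus, GABA release from AgRP neurons and glutamate input to AgRP neurons are both known to bear on feeding.

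Arcuate libraries held 15483922 to 20399718 counts (median 17324244) and nodose libraries 1813994 to 10422914. All 8 markers of arcuate neurons reached 1 CPM in arcuate, and their summed level was 261 to 440 CPM. Markers of regions beside the arcuate were present as well, from 82.6 to 186 CPM for a thalamic list of 6 genes and from 10.6 to 83.7 CPM for a posterior hypothalamic list of 5. In nodose, the 5 nodose neuron markers summed to 1.04 to 5.19 CPM and 2 of them had a median of 0, while 4 Schwann cell markers summed to 9678 to 30050 CPM and 5 skeletal muscle markers to 4074 to 58262 CPM. The nodose libraries therefore did not show the defining markers of the labelled neurons above a trace level. Nr1d1 and Nr1d2, the targeted genes, had overlapping ranges in Control and HepDKO in both tissues. The HepDKO ZT10 libraries arcuate replicate 3 and nodose replicate 2 held 1914 and 1694 counts of Xist, which is not expressed in male tissue, against the label. Arcuate HepDKO ZT4 replicate 3 stood apart for the receptor genes: it was the lowest of 24 libraries for 23 of 44 members and the highest for 5. The labels do not say whether pools came from separate litters or cages, and the p-values below measure the spread between these libraries.

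In arcuate, GABA-A genes of several classes stood at similar levels. Levels of different genes are compared here as CPM per kb of exon, since a longer transcript gives more reads. The length is that of all annotated exons merged, which can exceed that of the transcripts present, so ranks between genes depend on it. Gabra3 was at 37.0 ± 2.75 CPM per kb (SD, n = 24) and Gabrb2 at 35.3 ± 4.35, a difference below the SD of either. Gabrq, which encodes the theta subunit, stood at 31.0 ± 3.67 CPM per kb and Gabre, which encodes epsilon, at 8.99 ± 1.41. Both theta and epsilon are known for a restricted expression that includes the hypothalamus. Gabrd, whose delta subunit forms extrasynaptic receptors, was near the lower end at 0.61 ± 0.333 CPM per kb, as was Gabrr2 of the rho class at 0.60 ± 0.306.

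Of the other alpha genes, Gabra2 was at 27.1 ± 1.98 CPM per kb (SD, n = 24), Gabra5 at 22.4 ± 1.83 and Gabra4 at 6.27 ± 0.667, so that Gabra4 lay well below the rest of its class. Gabrb1, a beta gene, was at 20.9 ± 2.35 CPM per kb. The gamma genes Gabrg1 and Gabrg3 were at 14.2 ± 1.40 and 5.96 ± 0.556. Of the 2 GABA-B genes, Gabbr1 was at 89.7 ± 2.67 CPM per kb and Gabbr2 at 34.2 ± 3.31. Gabbr1 also had the lowest coefficient of variation of the 44 members, 2.98%.

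Many GABA-A genes lie in clusters (GRCm38, GENCODE annotation). Gabrg1, Gabra2, Gabra4 and Gabrb1 lie together on chromosome 5 from 70751047 to 72149037, and Gabre, Gabra3 and Gabrq on the X from 72255999 to 72842602. Genes of 1 cluster did not share 1 level: on chromosome 5, Gabra2 exceeded Gabra4 by far more than their SD. Exons of Gabra4 and Gabrb1 overlap over 46 bp on opposite strands. Grin1os shares 1307 bp of exon with Grin1 on the other strand, 45.2% of its length. Whether reads were counted by strand is not given in the sources used here, so its values can hold reads of Grin1.

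Among glutamate receptor genes, the AMPA subunit gene Gria1 had the highest level per kb of all members, 96.9 ± 5.57 CPM per kb. In CPM, Gabbr1 (697) stood above Gria1 (586). Per kb, Gria1 made up 60.2% ± 1.31 of the AMPA pool. Gria2, whose edited subunit makes the channel impermeable to calcium, made up 20.9% ± 0.96, Gria4 13.0% ± 0.58 and Gria3 5.97% ± 0.50. These shares depend on the merged exon length, 15548 bp for Gria2 against 6043 for Gria1. In CPM, Gria2 (522) was near Gria1. NMDA receptors need the subunit encoded by Grin1, which led its family at 18.7 ± 0.996 CPM per kb. Grin3a was at 9.03 ± 0.992, Grin2d at 7.12 ± 0.627, Grin2b at 7.01 ± 1.21, Grin2c at 4.94 ± 0.673 and Grin2a at 1.44 ± 0.136 CPM per kb. Per kb, the 4 GluN2 genes thus ended with Grin2a, the one known to dominate in adult cortex, while Grin2d and Grin2b differed by less than their SD. This order depends on the merged exon lengths, 24842 bp for Grin2b and 17933 for Grin2a, against 6658 for Grin2d and 5037 for Grin2c. In CPM, Grin2b was at 174, Grin2d at 47.4, Grin2a at 25.8 and Grin2c at 24.9.

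Grik5, an auxiliary-type kainate subunit with high affinity, was at 30.6 ± 2.73 CPM per kb and took 46.8% ± 2.29 of the kainate pool, and Grik1 was the lowest of the 5 at 3.83 ± 0.483. Grid1, a delta receptor gene, was at 13.7 ± 1.14 CPM per kb. In the metabotropic groups, Grm5 led group I (14.4 ± 1.29 CPM per kb), Grm3 group II (6.88 ± 1.07) and Grm7 group III (11.6 ± 0.875). In CPM, Grm2 (24.1) stood above Grm3 (21.0). Summed per kb, the 18 ionotropic glutamate genes reached 291 ± 9.51 and the 15 GABA-A genes 329 ± 21.2.

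**Figure D1:**
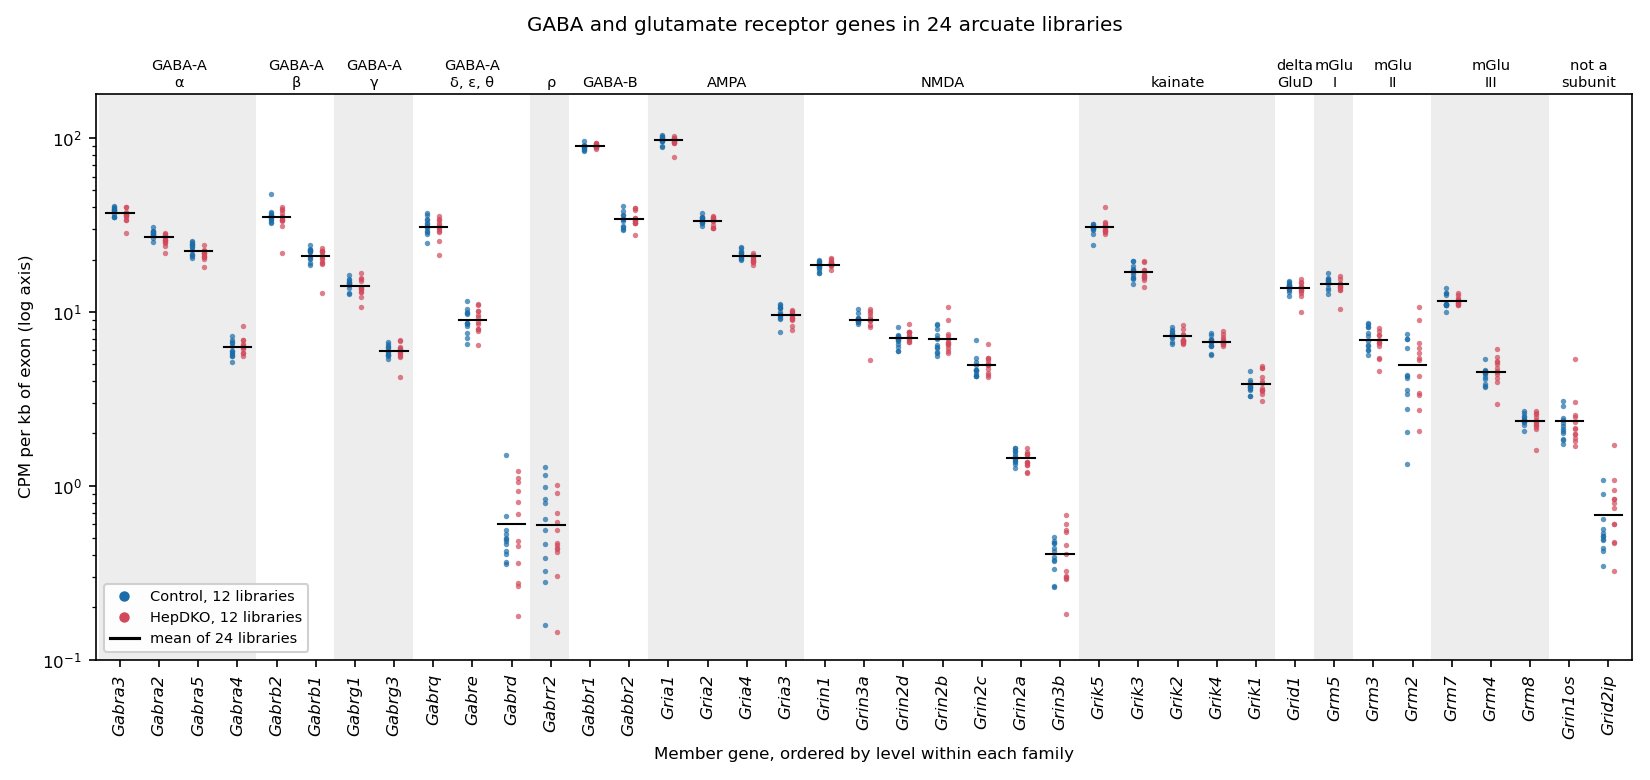
CPM per kb of exon (log axis) of the member genes reported here in the 24 arcuate libraries, grouped by receptor family; points are libraries, blue for Control and red for HepDKO, and the bar is the mean. Gria1 (96.9) and Gabbr1 (89.7) lie at the top, Gabrd, Gabrr2 and Grin3b below 1, and the libraries of Grm2 spread more widely than those of its neighbours.

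The members differed in how much they varied among arcuate libraries. The coefficient of variation was 54.9% for Gabrd, 51.3% for Gabrr2, 46.6% for Grm2, 45.4% for Grid2ip, 31.8% for Grin1os and 29.9% for Grin3b. Apart from Grm2 these are low genes, at 6.79 CPM or less. Grm2, a presynaptic group II receptor gene (chr9:106643095-106656082), ranged from 6.55 to 52.2 CPM with a median of 21.1. Its lowest library was Control ZT16 replicate 1 and its highest HepDKO ZT4 replicate 3, and the genotypes overlapped from 10.1 to 36.5 CPM.

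Across the 24 libraries, Grm2 moved with the summed posterior hypothalamic markers (Pearson r 0.946 and Spearman rho 0.935 on the log2 scale), with r 0.969 within Control and 0.926 within HepDKO, and 0.954 without the 2 libraries farthest from the median marker sum. Gabrd moved with the thalamic markers (r 0.814, rho 0.838, and 0.726 without the 2 farthest libraries), as did Grid2ip (r 0.859, rho 0.814, and 0.794). The other 3 pairings of these genes and lists had r from 0.08 to 0.17. The 2 lists were written after the spread of these members was seen, and all points share their library, so the values are given with no test. The posterior hypothalamic sum had medians of 40.4 CPM in Control and 59.1 in HepDKO, and their part in the values of Grm2 was not tested.

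**Figure D2:**
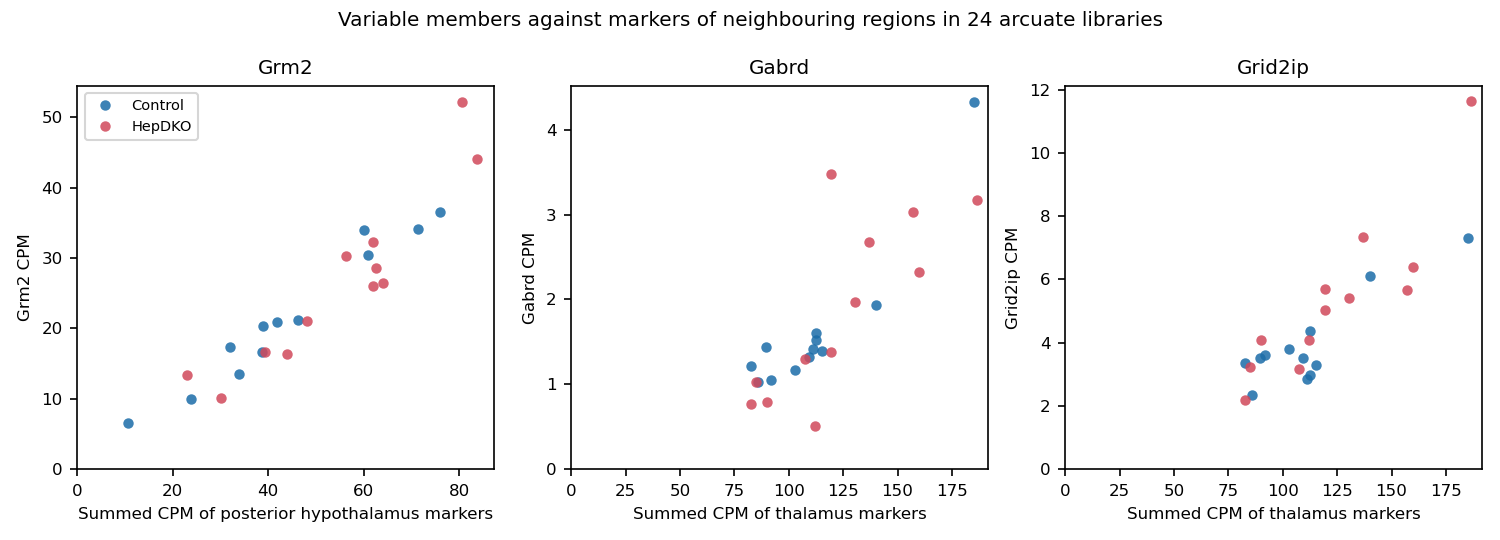
CPM of Grm2, Gabrd and Grid2ip against the summed CPM of 5 posterior hypothalamic or 6 thalamic marker genes in the 24 arcuate libraries (blue Control, red HepDKO). Grm2 climbs with the posterior hypothalamic sum in both genotypes, and Gabrd and Grid2ip are high in libraries with a high thalamic sum.

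The comparison of HepDKO with Control asks whether deletion in hepatocytes was followed by a difference in the receptor genes of the arcuate nucleus. Averaged over the 4 times, 0 of the 44 members passed an adjusted p of 0.05 in the edgeR quasi-likelihood fit, with p adjusted by Benjamini-Hochberg over 16102 genes, and 0% of all genes did. DESeq2 also passed 0 members. At an unadjusted p under 0.05 there were 7 members by edgeR (15.9%, beside 8.61% of all genes). Of the 7, 5 had lower estimates in HepDKO (11.4%, beside 3.64% of all genes). Estimates of any p were lower in HepDKO for 27 of 44 members (61.4%, beside 52.2%), and the median difference was -0.04 on the log2 scale, beside -0.00 over all genes. It was -0.02 without HepDKO ZT4 replicate 3, in which 23 of the 44 members had their lowest level of all arcuate libraries.

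The GABA-A genes had the lowest p-values. Gabra2, an alpha subunit gene, ran from 193 to 235 CPM in Control (median 216) and from 167 to 217 in HepDKO (median 198). The ranges overlapped, with the HepDKO libraries shifted down. Its log2 difference was -0.13 (SE 0.0362, adjusted p 0.313, edgeR). Gabra5 was at -0.12 (SE 0.0418, adjusted p 0.424, edgeR), with Control libraries from 60.5 to 76.0 CPM and HepDKO libraries from 54.0 to 72.5. Control and HepDKO libraries overlapped in both genes, and neither passed the adjusted threshold.

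By class, the 15 GABA-A genes had a median log2 difference of -0.09, with 12 lower estimates (80%, beside 52.2% of all genes), and 0 passed the adjusted threshold in edgeR. At an unadjusted p under 0.05 there were 4 (26.7%, beside 8.61%), of which 2 were among the 5 alpha, 1 among the 3 beta and 1 among the 3 gamma genes. Without HepDKO ZT4 replicate 3, the GABA-A median was -0.05, with 11 lower estimates (73.3%, beside 52.1% of all genes). In that fit 4 had an unadjusted p under 0.05 (26.7%, beside 7.82%). Of the alpha genes, Gabra4 (0.06, SE 0.059) had an estimate above 0. Both GABA-B genes had estimates near 0 (0.02 for Gabbr1 and 0.01 for Gabbr2). All 4 AMPA genes had lower estimates (median -0.06, beside 52.2% of all genes lower), with Gria4 at -0.09 (SE 0.0336, adjusted p 0.446, edgeR). The 7 NMDA genes had a median of 0.04 (0.02 without that library), with 4 estimates above 0 and Grin2d at 0.09 (SE 0.0417, adjusted p 0.536, edgeR). Grid2ip, no subunit, was at 0.43 (SE 0.181, adjusted p 0.524, edgeR), with Control libraries from 2.33 to 7.30 CPM and HepDKO from 2.19 to 11.6. In these bulk samples, fewer cells of a type and less RNA per cell cannot be told apart. The summed neuron markers had medians of 2583 CPM in Control and 2587 in HepDKO.

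At ZT4 alone, 0 members passed the adjusted threshold in edgeR (0% of all genes) and 0 in DESeq2, but 12 of 44 had an unadjusted p under 0.05 (27.3%, beside 11.9% of all genes) and 11 of these had lower estimates in HepDKO (25%, beside 5.65%). Estimates of any p were lower for 31 of 44 (70.5%, beside 51.1%). The 2 with the lowest p were GABA-A genes of the chromosome 5 cluster. Control libraries gave 116, 121 and 100 CPM of Gabrg1, against 95.6, 102 and 83.8 for HepDKO. For Gabra2 the values were 216, 216 and 193 CPM, against 184, 199 and 167. Groups overlapped for both genes, and in each the lowest library was HepDKO replicate 3. The log2 differences were -0.29 (SE 0.0875) for Gabrg1 and -0.22 (SE 0.0724) for Gabra2, with adjusted p of 0.289 and 0.324 by edgeR.

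The ZT4 count moved with single libraries, most with HepDKO ZT4 replicate 3. Without that library, 1 of 44 members (Gabrg1, -0.17, SE 0.0758) kept an unadjusted p under 0.05, beside 4.79% of all genes, and the median of members went from -0.14 to -0.04. Estimates were lower for 31 of 44 in that fit (beside 51.4% of all genes), 29 of them among the 31 that were lower with all libraries. Leaving out Control ZT4 replicate 1 gave 5 members (beside 8.34% of all genes), replicate 2 gave 6 (beside 7.26%) and replicate 3 gave 12 (beside 11.8%). Leaving out HepDKO ZT4 replicate 1 or 2 gave 22 each (beside 19.7% and 21.1%). For Gabrb1, HepDKO ZT4 replicate 3 had 178 CPM beside 260 and 268 in the other HepDKO and 259 to 316 in the Control ZT4 libraries, and the log2 difference went from -0.35 to -0.15 without it. In this library, the summed astrocyte markers were the lowest of the 24 (731 CPM, beside 816 to 1065 in the others), as were the microglia markers (168 CPM). The arcuate neuron sum was the highest of the 24 (440 CPM, beside 261 to 400.6), and the oligodendrocyte sum was 4686 CPM beside a median of 3493. The part of these in the ZT4 differences was not tested. Averaged over times without HepDKO ZT4 replicate 3, 24 of 44 members had lower estimates (beside 52.1% of all genes), with a median of -0.02 in place of -0.04. In that fit 7 had an unadjusted p under 0.05 (beside 7.82% of all genes).

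**Figure D3:**
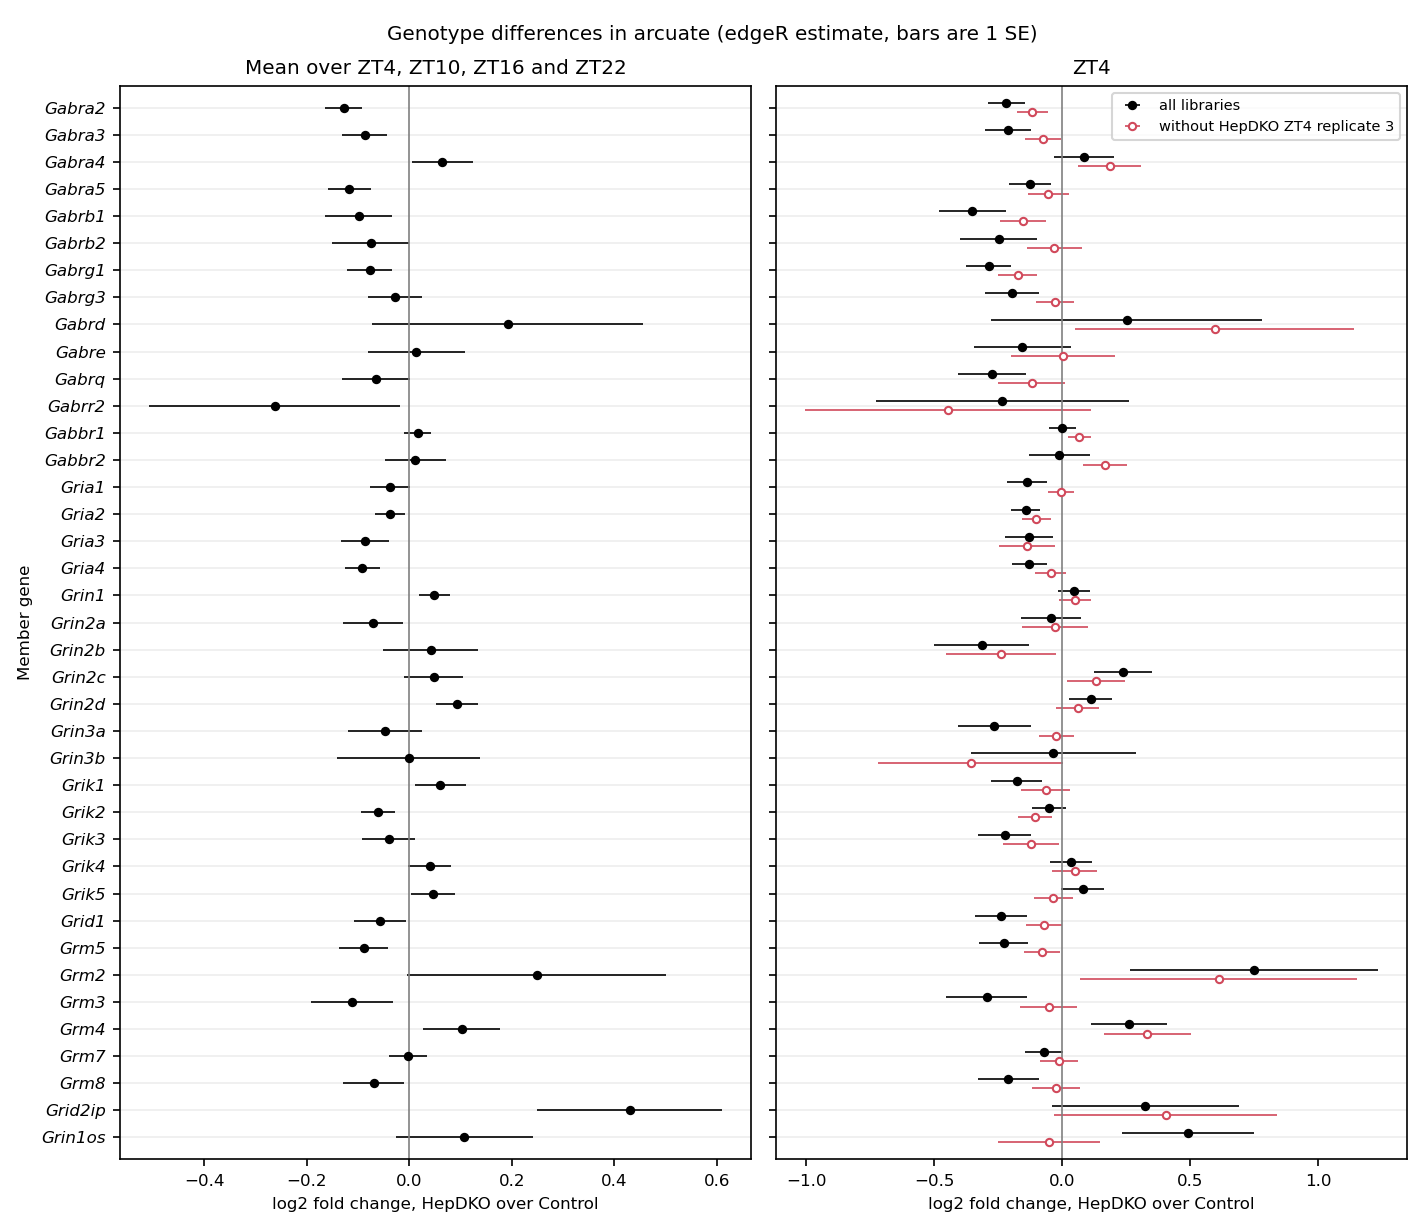
Log2 difference between HepDKO and Control arcuate libraries for the members reported here (positive where HepDKO is higher), averaged over times (left) and at ZT4 (right), with bars of 1 SE; open red symbols leave out HepDKO ZT4 replicate 3. Most GABA-A alpha, beta and gamma estimates lie left of 0 by about 0.1 in the mean, and at ZT4 those of these genes left of 0 lie nearer to 0 without that library.

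At the other times fewer members stood out. At ZT10 no member had an unadjusted p under 0.05 (beside 2.34% of all genes), and Grin3b, Grm3 and Grik4 had the lowest p, with log2 differences of -0.67, -0.28 and 0.14. At ZT16 there were 4 of 44 (9.09%, beside 2.73%). For Grid2ip, Control libraries gave 3.36, 3.31 and 2.84 CPM and those of HepDKO 6.38, 5.05 and 7.34. For Gabrd, Control libraries gave 1.21, 1.39 and 1.42 CPM and those of HepDKO 2.32, 3.48 and 2.68. The groups did not overlap for either gene, and the summed thalamic markers were 82.6 to 115 CPM in Control and 120 to 160 in HepDKO at that time. The log2 differences were 0.98 (SE 0.362) and 1.09 (SE 0.51), with adjusted p 1.00 for both (edgeR). Gria4 (-0.15) and Gabra2 (-0.15) were the other 2. With thalamic and posterior hypothalamic scores as covariates, 1 member had an unadjusted p under 0.05 at ZT16, beside 3.99% of all genes in that fit. At ZT22 there were 3 of 44 (6.82%, beside 3.72%): Grik1 (0.25, SE 0.0983), Gabra5 (-0.20, SE 0.0842) and Grin3b (0.69, SE 0.332), with adjusted p of 1.00 by edgeR. At these 3 times 0 members and 0% of all genes passed the adjusted threshold in edgeR, and DESeq2 passed 0 members.

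Ratios between subunits of 1 family did not pass a test. Of 6 pairs tested, Grin2a/Grin2b, Gria2/Gria1 and Gabbr1/Gabbr2 are reported here. Each pair was tested for genotype and for a 24-h rhythm, which made 12 permutation tests (two-sided, 100000 resamples). The lowest raw p was 0.115, and adjusted p-values ran from 0.53 to 0.938. Ratios were taken between CPM values with no correction for length, so they compare groups of libraries and not the levels of the paired genes. The log2 ratio Grin2a/Grin2b was -2.69 ± 0.199 in Control and -2.80 ± 0.231 in HepDKO (SD, n = 12 each), a difference below the spread of libraries (permutation p 0.233). Gria2/Gria1 was -0.17 ± 0.0926 and -0.16 ± 0.0997, likewise below it (permutation p 0.938).

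Genes that work with the receptors were read from 5 lists: AMPA and kainate auxiliary subunits (14 genes), GABA receptor partners (9), postsynaptic scaffolds (18), GABA supply (8) and glutamate supply (10). Averaged over times, 0 genes of each list passed the adjusted threshold for genotype in edgeR, and the counts at an unadjusted p under 0.05 were 2, 1, 0, 1 and 1. Together these are 5 of 59 genes (8.47%), near the 8.61% of all genes. At ZT4, 0 passed the adjusted threshold in edgeR and 10 of 59 had an unadjusted p under 0.05 (16.9%, beside 11.9%). Without HepDKO ZT4 replicate 3, the ZT4 count was 2 of 59 (3.39%, beside 4.79%). The 8 genes of GABA supply all had lower estimates at ZT4 (median -0.11, beside 51.1% of all genes lower). Without that library 4 of 8 did (median -0.00, beside 51.4%). Averaged over times, 7 of these 8 had lower estimates in HepDKO (beside 52.2% of all genes). Gad2, a GABA-synthesising enzyme, was at -0.17 (SE 0.073, adjusted p 0.529, edgeR) and Gad1 at -0.08 (SE 0.0455). The others were Kctd12 at -0.11 (SE 0.0458), an auxiliary GABA-B subunit, and Slc38a2 at -0.15 (SE 0.0602), a glutamine transporter. Among scaffolds, Nlgn1 was at -0.09 (SE 0.0519). Of the 14 auxiliary genes, 8 had lower estimates (beside 52.2% of all genes), and the 2 at an unadjusted p under 0.05 differed in sign, with Cacng8 at 0.13 (SE 0.0463) and Neto1 at -0.10 (SE 0.0437). Medians of the 5 lists lay between -0.05 and 0.01.

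Over the day, averaged over genotypes, 1 of 44 members passed the adjusted threshold for a 24-h rhythm (2.27%, beside 3.86% of all genes, edgeR with 2 degrees of freedom), and 9 had an unadjusted p under 0.05 (20.5%, beside 21.6%). These shares are near those of all genes. Without HepDKO ZT4 replicate 3, 15 had an unadjusted p under 0.05 (34.1%, beside 22.4%). The member was Grik1, which encodes the GluK1 kainate subunit (chr16:87895900-88290265). Its Control libraries held 25, 24.6 and 27.1 CPM at ZT4, 22, 22.1 and 24.1 at ZT10, 23.8, 24.8 and 25.5 at ZT16, and 26.6, 25.2 and 30.5 at ZT22. Its HepDKO libraries held 24.0, 24.7 and 20.6 CPM at ZT4, 23.8, 23.5 and 26.2 at ZT10, 22.8, 28.3 and 27.0 at ZT16, and 32.7, 31.9 and 31.9 at ZT22. The HepDKO libraries at ZT22 lay above all other libraries. The Control libraries at ZT22 overlapped those at ZT4 and at ZT16. In Control alone the rhythm of Grik1 did not pass (amplitude 0.13, SE 0.0499, adjusted p 0.651, edgeR).

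Grik1 had an amplitude, from mean to peak, of 0.17 on the log2 scale (SE 0.0351) with a peak at ZT21.1 (adjusted p 0.0175, edgeR). It passed without the Xist-positive ZT10 library (adjusted p 0.018, edgeR), a fit in which Grid2ip passed too (adjusted p 0.038). It also passed in all other fits of the 24-h component but one. With thalamic and posterior hypothalamic marker scores as covariates, chosen after the data were seen, the amplitude was 0.14 and the adjusted p 0.197 by edgeR. The thalamic sum itself had medians of 90.9, 108, 118 and 135 CPM at ZT4, ZT10, ZT16 and ZT22. In that fit 99 genes of all passed, beside 622 without covariates.

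Grik2, another kainate subunit gene, came next with an amplitude of 0.09 (SE 0.0237, peak ZT0.02, adjusted p 0.0793, edgeR), then Grm7, a presynaptic group III receptor gene, with 0.09 (SE 0.026, peak ZT22.8, adjusted p 0.0935, edgeR). Grik2 ran from 97.7 to 108 CPM at ZT22 and from 86.6 to 97.8 at ZT16, and Grm7 from 68.7 to 80.8 at ZT22 and from 58.7 to 69.2 at ZT16. The 2 times overlapped narrowly in both genes. Without HepDKO ZT4 replicate 3, 5 members passed (beside 5.97% of all genes): Grik1, Grm3 (amplitude 0.20, peak ZT1.53, adjusted p 0.00384, edgeR), Grm7 (adjusted p 0.0312), Grik2 (adjusted p 0.0484) and Gabbr2 (amplitude 0.11, peak ZT2.62, adjusted p 0.0497). Grm3, a group II receptor gene also found in astrocytes, was at 13.9 CPM in that library and between 22.6 and 26.0 in the other 5 at ZT4. DESeq2 passed 3 members, Grik1, Grid2ip and Grik2, with 6.94% of all genes.

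**Figure D4:**
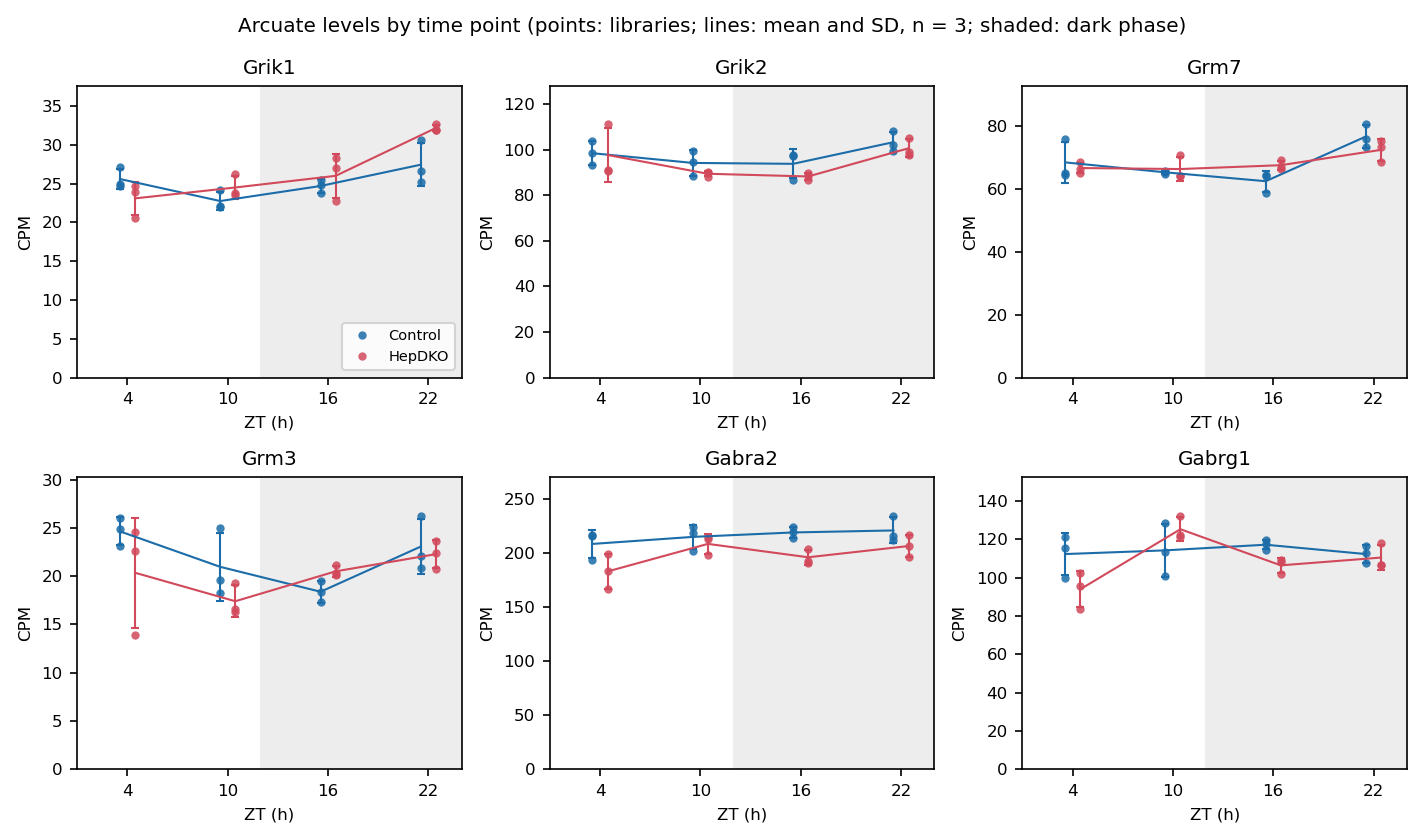
CPM of Grik1, Grik2, Grm7, Grm3, Gabra2 and Gabrg1 in arcuate against ZT, with each library as a point and the mean and SD of 3 libraries per genotype as lines; the dark phase is shaded. The mean of Grik1 is highest at ZT22 in both genotypes, with Control libraries overlapping other times, and 1 HepDKO library at ZT4 lies below the others for Grm3.

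The fitted peaks of 34 of 44 members, whatever the p, fell in the dark phase (77.3%, beside 48% of all genes). In Control this was 27 of 44 (61.4%, beside 49%) and in HepDKO 39 of 44 (88.6%, beside 48.1%). Without HepDKO ZT4 replicate 3, the lowest of 24 libraries for 23 members, the HepDKO count was 25 of 44 (56.8%, beside 47.8%). Without it the count for the mean was 28 of 44 (63.6%, beside 47.3%) and that for Control 26 of 44 (59.1%, beside 48.2%). Members share libraries and are not independent, so these are counts and not a test. For the mean, the ionotropic glutamate genes had 15 of 18 peaks in the dark phase (13 without that library), the GABA-A genes 12 of 15 (11) and the mGlu genes 5 of 7 (2). Within Control, 0 members passed the adjusted threshold in edgeR (beside 0.261% over all genes) and 0 in DESeq2. The unadjusted p was under 0.05 for 4 (9.09%, beside 7.73%) and without that library for 7 (15.9%, beside 11.2%). Lowest were the p of Grm7 (amplitude 0.13), Grin2c (0.17) and Grm3 (0.22) with all libraries. Within HepDKO, 0 passed in edgeR (beside 0.379%), and 1 without HepDKO ZT4 replicate 3 (beside 0.676%). DESeq2 passed 1, a count given without its share of all genes and not comparable with the 0.379%. In edgeR the unadjusted p was under 0.05 for 8 (18.2%, beside 17.4%), with Grik1, Gria2 (0.09) and Gabrb1 (0.21) first. Without HepDKO ZT4 replicate 3 it was under 0.05 for 12 (27.3%, beside 14.6%), and the amplitude of Gabrb1 was 0.13. In HepDKO, Grik1 had an adjusted p of 0.0723 by edgeR (amplitude 0.23, SE 0.0493), 0.0113 by DESeq2 and 0.0313 by edgeR without HepDKO ZT4 replicate 3. By edgeR it was 0.186 without HepDKO ZT16 replicate 2 and 0.241 with neuron and oligodendrocyte scores as covariates. With thalamic and posterior hypothalamic scores it was 0.505 (amplitude 0.19, edgeR). The difference in rhythm between genotypes passed for 0 members (0% of all genes), and Grin3b alone had an unadjusted p under 0.05 (2.27%, beside 2.37%). For Grik1 this difference had an unadjusted p of 0.118, so its rhythm was not shown to differ between genotypes.

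Of the partner lists, 3 of 59 genes passed for the mean rhythm in edgeR (5.08%, beside 3.86% of all genes). Glul, the glutamine synthetase of astrocytes, had an amplitude of 0.24 (SE 0.0409, peak ZT15.8, adjusted p 0.00547, edgeR). Kctd12 had 0.17 (SE 0.0324, peak ZT14.9, adjusted p 0.00832, edgeR). Shank3, a postsynaptic scaffold, had 0.19 (SE 0.0398, peak ZT18.7, adjusted p 0.0237, edgeR). Gad1 had 0.13 (SE 0.0322, peak ZT15.8, adjusted p 0.0508, edgeR).

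In nodose ganglia 27 of 44 members could be tested. Per length, the highest median was that of Grik5 (7.80 CPM per kb, range 5.05 to 13.2), followed by Gabbr1 (4.82, range 3.28 to 7.27), Gria3 (4.34, range 1.85 to 6.37) and Gabra3 (3.33, range 1.74 to 7.61). Each was present in all nodose libraries, and the ranges of neighbours overlapped. For Gria1, the leading AMPA gene of arcuate, the nodose median was 1.27 CPM, and for Gabbr2, the partner of Gabbr1 in GABA-B receptors, 0.90 CPM. No GABA-A gamma gene could be tested in nodose: Gabrg1 had a median of 0 and Gabrg3 of 0.42 CPM. The members were chosen by their arcuate level, and the tissues also differed in library preparation, so these levels are a description and tissue and preparation cannot be told apart.

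Between genotypes in nodose, 0 of 27 members passed the adjusted threshold in edgeR (0% of all genes) or DESeq2, and 0 had an unadjusted p under 0.05 in either (beside 3.34% of all genes in edgeR). Estimates were lower in HepDKO for 25 of 27, beside 46.7% of all genes, with a median log2 difference of -0.11 (0.01 over all genes). Low p-values belonged to Gabrq (-0.26, SE 0.144) and Grik3 (-0.30, SE 0.179), both with adjusted p 1.00 (edgeR). The summed neuron markers had a median of 24.4 CPM in Control and 20.9 in HepDKO nodose libraries, and their part in these estimates was not tested.

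For the 24-h rhythm in nodose, 2 of 27 members passed (7.41%, beside 1.33% of all genes) and 8 had an unadjusted p under 0.05 (29.6%, beside 12.8%). Grin2b encodes a GluN2 subunit of NMDA receptors (chr6:135713233-136173511). It was at 15.4, 15.5 and 7.10 CPM at ZT4, 5.05, 7.77 and 6.30 at ZT10, 6.52, 5.46 and 8.65 at ZT16 and 8.38, 11.9 and 9.83 at ZT22 in Control. In HepDKO it was at 8.80, 18.5 and 7.85 CPM at ZT4, 5.37, 8.72 and 7.26 at ZT10, 6.77, 5.15 and 4.82 at ZT16 and 10.3, 11.6 and 7.78 at ZT22. Levels were low at ZT10 and ZT16 in both genotypes, and the ZT4 libraries were uneven, with 3 of 6 above 15 CPM. The amplitude was 0.57 (SE 0.0997, peak ZT2.39, adjusted p 0.00929, edgeR). Grin1, whose subunit NMDA receptors need, had a nodose median of 0.60 CPM and no counts in 2 libraries. The summed neuron markers in nodose had medians of 27.3, 19.2, 25.5 and 22.1 CPM at ZT4, ZT10, ZT16 and ZT22. Their part in the values of Grin2b was not tested.

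Gabra3, the alpha 3 subunit gene, peaked at another time. It was at 8.82, 12.9 and 9.01 CPM at ZT4, 6.84, 8.25 and 11 at ZT10, 25.4, 24.4 and 20.1 at ZT16 and 29.8, 13.8 and 22.3 at ZT22 in Control. In HepDKO it was at 13.4, 12.5 and 9.78 CPM at ZT4, 12.5, 12.3 and 13.2 at ZT10, 17.4, 23.2 and 15.5 at ZT16 and 17.9, 11.4 and 7.34 at ZT22. All 6 libraries at ZT16 were above all 12 at ZT4 and ZT10, while ZT22 overlapped with them in HepDKO. The amplitude was 0.50 (SE 0.0915, peak ZT18.3, adjusted p 0.0148, edgeR). Without the Xist-positive nodose library the adjusted p-values were 0.0121 for Grin2b and 0.0251 for Gabra3 by edgeR, and with muscle and Schwann scores as covariates 0.00841 and 0.0068.

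Gabrr2 (amplitude 0.58, peak ZT17.7, adjusted p 0.125, edgeR), Grin2a (0.38, peak ZT2.31, adjusted p 0.157, edgeR) and Gabrq (0.35, peak ZT16.9, adjusted p 0.203, edgeR) had the next lowest p. Their fitted peaks lay near those of Gabra3 for Gabrr2 and Gabrq and near that of Grin2b for Grin2a. In arcuate, Grin2b and Gabra3 did not pass (amplitudes 0.11 and 0.04). The fitted peaks of 10 of 27 members lay in the dark phase (37%, beside 45.7% of all genes). The difference between tissues in the rhythm, a test added after the nodose result was seen, passed for 0 of 27 members in edgeR, beside 0.387% of the 13941 genes tested in both. An unadjusted p under 0.05 was found for 5 members (18.5%, beside 10.3%). Grin2b had an adjusted p of 0.0692 and Gabra3 of 0.0763 by edgeR, so a difference between tissues was not shown.

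**Figure D5:**
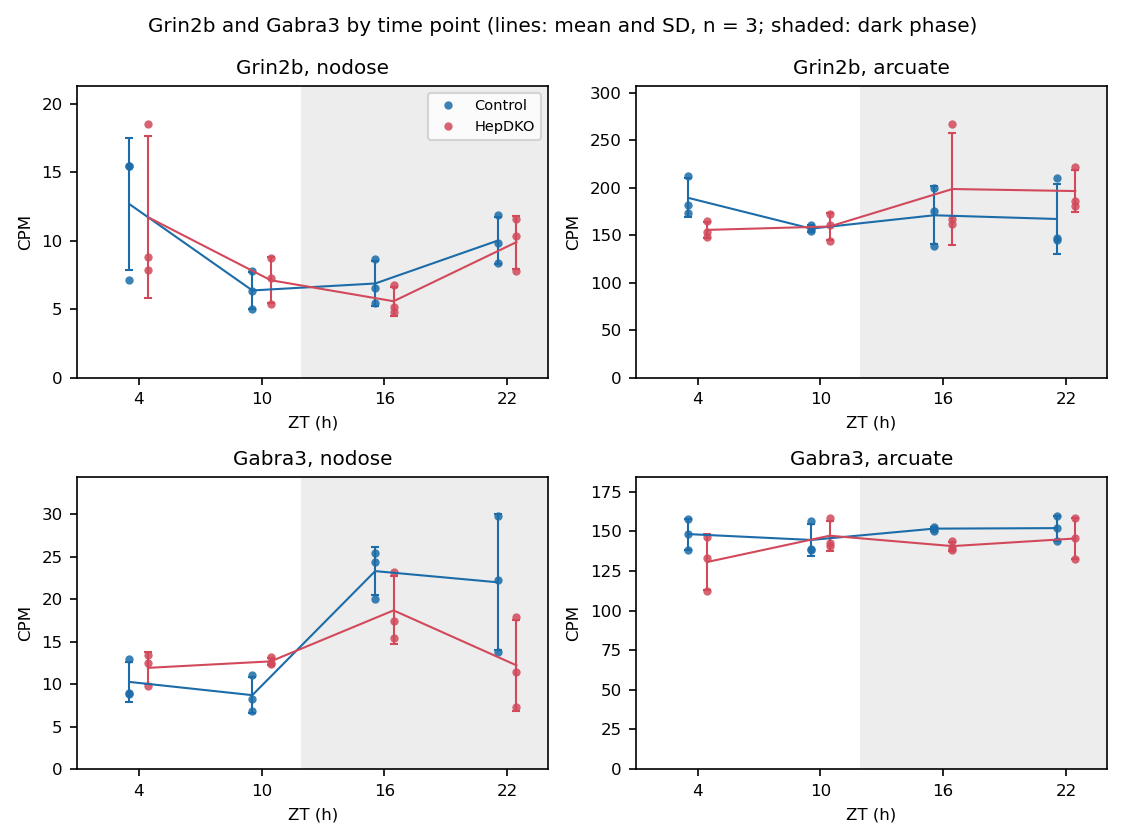
CPM of Grin2b and Gabra3 against ZT in nodose (left) and arcuate (right), with libraries as points and the mean and SD of 3 libraries per genotype as lines; the dark phase is shaded. Nodose Grin2b is lowest at ZT10 and ZT16, nodose Gabra3 is high at ZT16, and the arcuate levels of both are flatter relative to their mean.

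Promoter sequences (from 250 bases before to 50 after the RefSeq start, GRCm38.p6) were found for 29 members, in 37 windows, and searched on both strands for 4 motifs of clock-controlled genes. The E-box CACGTG was in 1 window of a member (Grin1), the core AGGTCA that REV-ERB and ROR receptors share in 2 (Grin2c and Grm8), the D-box TTATGTAA or TTACGTAA in 1 (Gabrr2) and the cAMP response element TGACGTCA in 0. Of all 32851 promoters of this length, 7.15%, 16.3%, 1.06% and 1.79% held them. One window each of 3 genes is shown, 5' to 3', with any match in capitals, because Gabra3 carried a nodose rhythm and Gabrr2 and Grin2c, each with an unadjusted p under 0.05 for the mean rhythm in arcuate, held a match. That of Gabra3 (chrX:72656870-72657169, minus strand) held none of the 4, that of Gabrr2 (chr4:33062862-33063161, plus strand) held the D-box at -191 from the start, and that of Grin2c (chr11:115267194-115267493, minus strand) held AGGTCA at -248. A match is a string of letters and says nothing of binding.
Gabra3: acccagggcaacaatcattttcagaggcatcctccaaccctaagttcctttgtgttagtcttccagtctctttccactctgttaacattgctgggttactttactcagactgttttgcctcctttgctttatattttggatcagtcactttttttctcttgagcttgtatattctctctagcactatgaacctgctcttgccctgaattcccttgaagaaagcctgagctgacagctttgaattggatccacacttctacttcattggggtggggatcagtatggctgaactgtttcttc
Gabrr2: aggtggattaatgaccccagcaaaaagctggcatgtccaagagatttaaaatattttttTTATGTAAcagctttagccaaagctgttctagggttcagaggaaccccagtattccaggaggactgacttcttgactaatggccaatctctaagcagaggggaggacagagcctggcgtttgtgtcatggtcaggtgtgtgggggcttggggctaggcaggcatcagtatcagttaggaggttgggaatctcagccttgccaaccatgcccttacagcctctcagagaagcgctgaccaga
Grin2c: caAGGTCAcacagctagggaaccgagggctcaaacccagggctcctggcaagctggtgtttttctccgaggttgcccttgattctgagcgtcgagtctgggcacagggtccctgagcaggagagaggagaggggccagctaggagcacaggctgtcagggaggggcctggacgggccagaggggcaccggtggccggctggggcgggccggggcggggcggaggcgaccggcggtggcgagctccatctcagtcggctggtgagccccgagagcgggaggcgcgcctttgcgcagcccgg
In arcuate, Gabrr2 was at 1.16 to 2.7 CPM at ZT16 and 0.68 to 0.98 at ZT10 (amplitude 0.50, SE 0.167, peak ZT17.5, adjusted p 0.151, edgeR), and its lowest library held 5 counts. Grin2c was at 25.1 to 34.7 CPM at ZT22 and 21.4 to 25.7 at ZT10 (amplitude 0.13, SE 0.0403, peak ZT22.2, adjusted p 0.119, edgeR).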

How the data were processed

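RNA of 24 arcuate and 24 nodose pools was sequenced. The deposited table holds raw counts per gene symbol. Per the submitters' processing notes the tools were FastQC 0.11.7, Trim Galore 0.6.10 and STAR 2.7.10b with build mm10. The counting step, its annotation and its use of strand are not given in the sources used here. CPM per kb divides CPM by the merged exon length of GENCODE M21 (GRCm38), where all 49 symbols matched.

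Arcuate (16102 genes) and nodose (14867 genes) had separate edgeR 4.0.16 fits (R 4.3.3) with filterByExpr, TMM factors, robust quasi-likelihood dispersions and 8 group means. Benjamini-Hochberg adjustment ran over all genes tested, with a threshold of 0.05. The rhythm test has 2 degrees of freedom (ZT4 minus ZT16, ZT10 minus ZT22) for a 24-h component. The code was tested on simulated data. Members and lists were chosen with earlier results of these data known, and the region lists, the tissue difference and the region correlations were added after values were seen. By rule, the text names members past a threshold, the 3 with the lowest p per test, the highest per length in each family, those of the 6 ratios, the 2 on each side of 1 CPM, and the leading partner genes. Other members were named after their values were seen. A few members and partners that the rule names are counted but not reported here by name. Alternatives were DESeq2 1.42.0, RLE factors, no filter, a replicate block, an additive model, marker scores as covariates, a test of any time difference, 0.5 CPM added in ratios, and leaving out each library.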

Additional observations from a re-analysis of the deposited data

How the results depend on the processing

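The counts of members past the adjusted threshold were 0 for genotype (mean and each time), for the Control rhythm and for the rhythm difference under every alternative run, and 2 for the nodose rhythm. Grin2b (adjusted p 0.000227 to 0.0437, edgeR or DESeq2) and Gabra3 (0.000349 to 0.036) passed in each nodose fit of the 24-h component. The arcuate mean rhythm had 1 member in the main analysis (beside 3.86% of all genes) and 3 by DESeq2 (beside 6.94%). It had 0 with thalamic and posterior hypothalamic scores as covariates (added after the data were seen). When each library was left out it had 1 to 5, the 5 being without HepDKO ZT4 replicate 3 (beside 5.97%). The HepDKO rhythm had 0 (beside 0.379%), then 1 by DESeq2 and 1 in a test of any difference among times. It had 0 to 1 with a library left out, among them 1 without HepDKO ZT4 replicate 3 (beside 0.676%). The tissue difference in rhythm gave 0 to 1 with a library left out. The cause of these moves was not tested. Where no share of all genes is given, a count does not show how members compare with other genes. With each library left out, the genotype difference of the log2 ratio Grin2a/Grin2b (-0.11 with all) ran from -0.162 (without Control ZT22 replicate 3) to -0.07 (without Control ZT22 replicate 1), that of Gria2/Gria1 from -0.0229 to 0.0204 and that of Gabbr1/Gabbr2 from -0.0238 to 0.0359.

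Pairing by replicate number was taken to need r over 0.1 between the deviations of all same-numbered libraries. Within a time, this held in 0 of 12 arcuate pairs and in 7 of 12 nodose pairs (r from -0.206 to 0.364). Over the 84 same-numbered pairs from different groups, the mean r was 0.0247 in arcuate and 0.000963 in nodose. With a replicate block, 0 members passed for genotype. At an unadjusted p under 0.05 there were 9 for the mean (beside 9.13% of all genes) and 15 at ZT4 (beside 12.5%). For rhythm, 1 passed in arcuate (Grik1, adjusted p 0.0191, edgeR), 2 in nodose and 0 for the tissue difference. These rhythm counts are given without the share of all genes and are not set against it.

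Low depth limits Gabrd, Gabrr2 and Grin3b in arcuate, whose lowest libraries held 8, 5 and 11 counts, and the members that could not be tested in nodose. Sampling every 6 h limits which waveforms can be told apart.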
